A study of Mus musculus with 36 samples.

Results

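Natural killer (NK) cells sorted without the receptors Ly49C, Ly49I and NKG2A, called TN cells here as in the labels, were compared between mice lacking B2m (B2m-/-, KO) and wild-type mice (B2m+/+, C57BL/6, WT). The comparison rests on 6 of the 36 libraries of the series, 3 of KO TN and 3 of WT TN cells, chosen by genotype and sort gate. All 6 came from mature splenic NK cells (CD27-, CD11b+), were prepared as poly(A) RNA libraries, carry the same batch date and hold TPM, a transcript level per gene length scaled to a fixed total per library. The same table holds 12 further libraries of cells with all 3 receptors (TP) or with Ly49I alone (SP), 3 of each genotype. The labels call the replicates biological, state no age and no treatment for these mice, and give no origin for the B2m allele. KO and WT cells come from different mice, so a difference between litters or cages cannot be told apart from genotype.

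B2m encodes beta-2 microglobulin, the light chain that MHC class I heavy chains need to reach the cell surface. Ly49C, Ly49I and CD94/NKG2A are inhibitory receptors for MHC class I of C57BL/6 mice, and NK cells that meet their MHC class I ligand through them during maturation become more responsive, a process called education or licensing. TN cells lack these receptors in a WT mouse, and in a B2m-/- mouse TN, SP and TP cells alike mature with little MHC class I at the surface. The comparison in TN cells therefore asks what a host and a cell without B2m change in NK cells that carry none of these 3 receptors.

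The genotype and the gate were read first. B2m (ENSMUSG00000060802) stood at 3009, 3006 and 2915 TPM in WT TN libraries but at only 117, 94.8 and 128 TPM in the KO TN group. Klra3 (Ly49C) lay between 0.23 and 2.48 TPM in the 6 libraries, and Klrc1 (NKG2A) between 13.1 and 29.2 TPM, against means of 217 and 864 TPM in WT TP cells. Klra9 (Ly49I) averaged 82.4 TPM in WT TN cells against 963 TPM in WT TP cells. Cd27 RNA was present at 170 to 239 TPM, and Itgam, which encodes CD11b, at 520 to 592 TPM. The 15 NK identity genes summed to between 26080 and 28730 TPM in each library. Among markers of other cells, Cd3e, Cd8a, S100a8 and S100a9 were listed at 0 in all 6 libraries. Cd3d was at 0.23 to 9.56 TPM and Cd3g at 1.91 to 5.48 TPM. Red cell and platelet markers summed to 14.3 to 55.5 TPM in WT TN and to 9.32 to 31.3 TPM in KO TN libraries. Dendritic cell markers summed to 8.52 to 16.35 and 4.56 to 12.75 TPM. The 14 neutrophil markers summed to 0 to 2.73 TPM in WT TN and to 0 to 1.43 TPM in KO TN libraries, and the 12 monocyte and macrophage markers to 11.1 to 20.1 and 7.41 to 19.0 TPM. The 14 B cell and plasma cell markers summed to 291 to 344 TPM in WT TN and 224 to 240 TPM in KO TN libraries, most of it Ighm. The T cell markers summed to 202 to 263 and 170 to 204 TPM, most of it Trbc2. Their part in the results was not tested. TPM keep no record of sequencing depth, which is unknown, so precision comes from the spread between libraries. Correlations of log2 values between replicates ran from 0.904 to 0.922 in WT TN and from 0.940 to 0.954 in KO TN cells, and 12302 to 13936 genes per library were above 0.

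In TN cells without B2m, 51 genes were higher and 35 were lower. The rises included the chemokine receptor gene Cxcr4, heat shock and glucocorticoid response genes such as Hsph1, Dnaja1 and Tsc22d3, and Raet1a, which encodes a ligand of the NKG2D receptor. The falls included B2m itself, the Khdc1 genes and their neighbours, Eps8l1, Arhgap31, Ifi208, the death gene Bmf and the cytokine receptor gene Kit. By log2 change, the largest rise was that of the predicted gene Gm3650, listed at 0 in all 3 WT TN libraries and at 15.2, 7.63 and 19.4 TPM in the KO TN group, and Cxcr4 came next. The largest falls were those of the predicted gene Gm4956, of Mir8097 and of B2m, in that order. These 86 genes are 0.716% of the 12018 tested (0.424% higher and 0.291% lower), by limma on log2(TPM + 1) with Benjamini-Hochberg adjustment and a threshold of 0.05, in a fit that shares one variance estimate over 18 libraries. Of them, 47 changed by at least 2-fold, and in 85 the 3 KO and 3 WT libraries did not overlap, which held for 13.7% of all genes tested. The median log2 change of all genes was 0.02. With the 6 TN libraries alone in the fit, 12 genes were called, 10 of them among the 86. The count fell to 54 without WT TN replicate 1, 56 without WT TN replicate 2, 54 without KO TN replicate 2 and 51 without KO TN replicate 3. No called gene changed direction under any of these settings, and 35 of the 86 kept their call without each of the 6 libraries in turn.

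**Figure D1:**
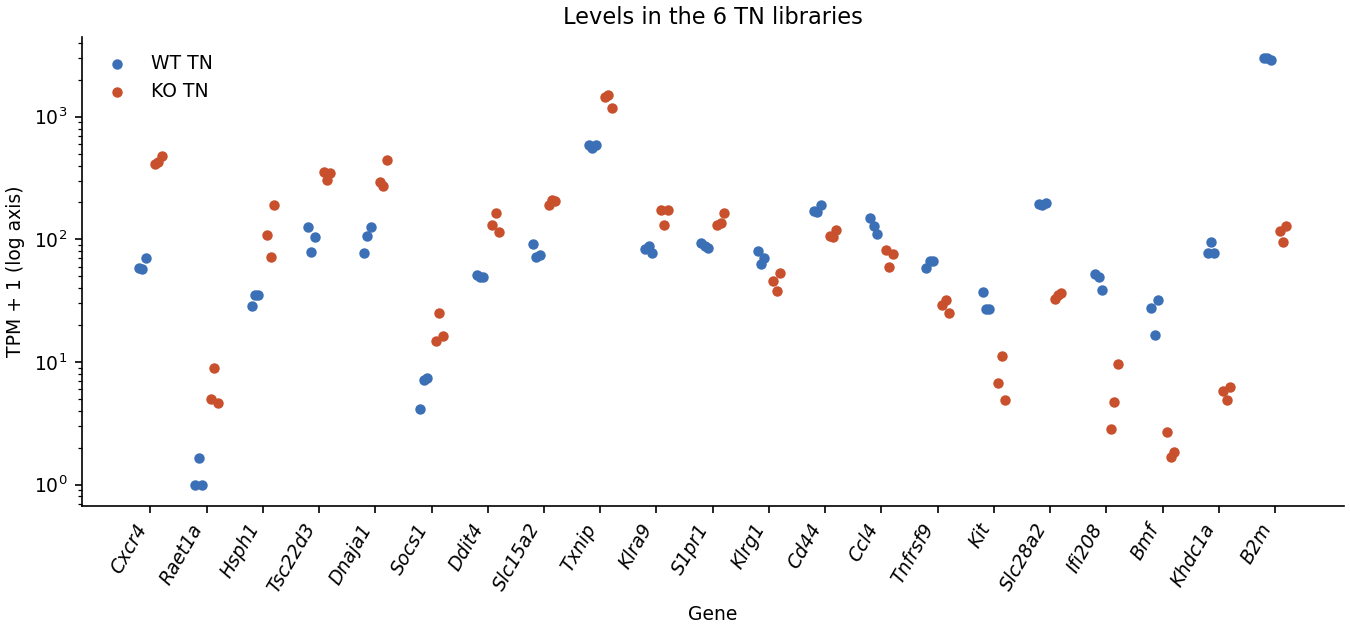
TPM + 1 on a log axis for 21 genes in the 3 WT TN (blue) and 3 KO TN (red) libraries, 1 point per library. The KO and WT points of each gene shown lie apart, with Cxcr4 at 412 TPM or more in every KO library and B2m below 129 TPM.

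The MHC class I genes were examined as the partners of B2m. Apart from B2m, whose mean fell 26.2-fold from 2977 ± 53.3 to 113 ± 17.1 TPM (SD, n = 3 each; log2 change -4.71 ± 0.12 SE, adjusted p = 5.4e-14), none of the 14 tested heavy chain genes was called. H2-K1, a classical heavy chain, was at 6729, 6089 and 6616 TPM in WT and 6116, 6265 and 6189 TPM in KO libraries, and H2-D1, the other classical heavy chain of these mice, was at 2680 to 2738 and 2620 to 2781 TPM. Their log2 changes were -0.06 and 0.01, with adjusted p of 0.716 and 0.985. The RNA of both heavy chains thus overlapped between genotypes while that of their light chain did not. The 2 members with the smallest p were H2-T24 (log2 change 0.29) and H2-Q2 (1.02, at 0 to 3.13 TPM). The absence of calls among these heavy chain genes stood against 0.716% called among all genes.

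Of 14 genes for peptide supply and loading, 1 was called, against 0.716% of all genes. Calr, which encodes the chaperone calreticulin of the loading complex, was at 414, 368 and 445 TPM in WT against 545, 518 and 522 TPM in the KO TN group, a 1.29-fold rise (log2 change 0.37 ± 0.07 SE, adjusted p = 0.020). That call was lost without any of 5 of the 6 libraries, with adjusted p up to 0.092. Tap1 and Tap2, the peptide transporter chains, had log2 changes of 0.05 and 0.14 and were not called.

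Receptor genes were led by 1 Ly49 and 1 NKR-P1 gene. Klra9 was at 82.5, 87.7 and 77.1 TPM in WT TN and at 172, 129 and 174 TPM in KO TN cells, 1.92-fold higher with no overlap (log2 change 0.92 ± 0.13 SE, adjusted p = 7.5e-04). The gate removes cells with Ly49I on the surface, and 158 TPM in KO TN cells is still far from the 1241 TPM of KO TP and 1296 TPM of KO SP cells. In TP and SP cells the log2 changes of Klra9 were 0.37 and 0.48, neither called, and the differences of 0.55 and 0.44 between TN and those subsets were not called either (adjusted p = 0.623 and 0.859). It was the only one of 10 tested Ly49 genes called in TN cells, against 0.716% of all genes. Of the 10, 4 had a log2 change above 0, against 53.4% of all genes. Klra7 (Ly49G), at 729 to 928 TPM in WT and 923 to 1061 TPM in KO, missed the threshold with an adjusted p of 0.247, and Klra8, which encodes the activating receptor Ly49H, was at 1436 to 1637 and 1212 to 1533 TPM (adjusted p = 0.627). Reads of Klra genes can be shared between family members, so the level of any single one is uncertain.

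Klrb1b, which encodes the inhibitory receptor NKR-P1B, was at 135, 109 and 126 TPM in WT and at 215, 235 and 223 TPM in KO TN cells. It rose 1.82-fold (log2 change 0.86 ± 0.11 SE, adjusted p = 3.7e-04), and its log2 changes in TP and SP cells were 1.08 and 1.35. Klrg1, an inhibitory cadherin receptor that marks mature NK cells, went the other way, from 78.9, 61.6 and 69.3 to 45.1, 37.2 and 52.4 TPM (log2 change -0.63 ± 0.14 SE, adjusted p = 0.045). Its call was lost without any of 5 of the 6 libraries, KO TN replicate 3 being the exception, with adjusted p up to 0.213. These were the 2 calls among 15 other lectin receptors of the NK gene complex, against 0.716% of all genes. Of the 15, 13 had a log2 change above 0, against 53.4% of all genes. Libraries did not overlap for 8 of the 15, against 13.7% of all genes. Among 9 tested inhibitory and checkpoint receptors none was called, against 0.716% of all genes. Tigit, an inhibitory receptor for nectins, was at 24.6, 50.9 and 40.8 TPM in WT and at 93.4, 140 and 72.9 TPM in the KO TN group, with no overlap and an adjusted p of 0.087. Pecam1 was at 50.2 to 52.2 and 31.3 to 37.2 TPM (adjusted p = 0.063). Tigit and Pecam1 were both called in TP and in SP cells in the same direction as their change in TN cells. For neither gene was the difference between subsets called.

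None of 33 activating receptor and signalling genes was called, and none of 22 genes that restrain receptor signalling, against 0.716% of all genes. At that share lists of this size can hold no call, so these counts do not show an absence of change. In the first list, Slamf7 was at 168, 144 and 132 TPM in WT and 96.1, 88.2 and 110 TPM in KO (adjusted p = 0.083), and Rasgrp1, a Ras activator, had a log2 change of -0.43 (adjusted p = 0.202). In the second, Ubash3b, a phosphatase that dampens tyrosine kinase signalling, was at 72.6 to 91.7 and 57.4 to 60.4 TPM (adjusted p = 0.068). Dusp2, a MAP kinase phosphatase, was at 191 to 266 and 298 to 406 TPM (adjusted p = 0.167). Each of these 4 genes was apart between genotypes in all 6 libraries without passing the test. Libraries did not overlap for 10 of the 33, 3 higher and 7 lower in KO, and for 5 of the 22, 2 higher and 3 lower. Among all genes 13.7% did not overlap. Slamf7 was called lower in both TP and SP cells, Ubash3b lower in SP cells alone, and Rasgrp1 and Dusp2 in neither.

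Homing genes were led by a chemokine receptor. Cxcr4, the receptor for CXCL12 that holds leukocytes in bone marrow, was at 57.0, 56.1 and 69.4 TPM in WT TN and at 412, 425 and 481 TPM in KO TN cells. That is 7.23-fold (log2 change 2.84 ± 0.18 SE, adjusted p = 4.7e-08), it was called under each of 18 settings run, and the KO levels of 440 ± 36.5 TPM (SD, n = 3) stood beside means of 457 TPM in KO TP and 475 TPM in KO SP cells. S1pr1, the receptor that lets lymphocytes leave tissue towards sphingosine-1-phosphate, rose as well, from 92.6, 87.1 and 84.1 to 129, 136 and 162 TPM (log2 change 0.68 ± 0.13 SE, adjusted p = 0.017). Its call was lost without WT TN replicate 2 (adjusted p = 0.062) or KO TN replicate 3 (0.105). Cd44, a receptor for hyaluronan, fell from 169, 165 and 189 to 105, 104 and 119 TPM (log2 change -0.67 ± 0.11 SE, adjusted p = 0.0049). Of 25 homing genes tested, these 3 were called, 2 higher and 1 lower, against 0.716% of all genes. Libraries did not overlap for 12 of the 25, against 13.7% of all genes, and the median log2 change was 0.01.

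Heat shock and glucocorticoid response genes held 7 calls, the most of any of the 28 lists. Of 24 tested, all 7 called genes were higher and 20 had a log2 change above 0. In 15 the KO libraries lay entirely above the WT libraries, and in none below. Among all genes 0.716% were called, 53.4% had a log2 change above 0 and 13.7% did not overlap. Their median log2 change was 0.60. Heat shock proteins keep other proteins folded, and their genes are driven by the factor HSF1 in stressed cells, whereas Tsc22d3, Ddit4, Txnip, Per1 and Fkbp5 are known glucocorticoid targets. The list was written with earlier results of these data known, so its direction is a description.

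Sequence of the 250 bases before a transcription start is shown for the called chaperone genes that hold a paired heat shock unit there, to let the chaperone results be read beside their promoters. Sequences are from RefSeq on GRCm38.p6, whereas expression was quantified on GRCm39. The unit pair was searched as GAANNTTC or TTCNNGAA, each of which reads the same on both strands, and is in capitals. The Hsph1 window, before the first of 2 listed starts, is chr5:149636337-149636586 on the minus strand and the Dnaja1 window, before the first of 3 listed starts, is chr4:40722218-40722467 on the plus strand.
Hsph1: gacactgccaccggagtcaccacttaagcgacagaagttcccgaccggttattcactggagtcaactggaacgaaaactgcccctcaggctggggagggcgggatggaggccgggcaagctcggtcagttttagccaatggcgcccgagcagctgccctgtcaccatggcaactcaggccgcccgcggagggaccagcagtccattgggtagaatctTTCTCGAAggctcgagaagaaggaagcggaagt
Dnaja1: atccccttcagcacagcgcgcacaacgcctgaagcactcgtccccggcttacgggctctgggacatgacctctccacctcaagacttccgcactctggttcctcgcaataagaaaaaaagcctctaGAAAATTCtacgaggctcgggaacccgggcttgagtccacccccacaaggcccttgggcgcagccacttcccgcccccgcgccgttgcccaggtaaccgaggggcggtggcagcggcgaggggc
The pair begins 33 bases before the Hsph1 start and 124 bases before this Dnaja1 start, and the windows of the other 2 Dnaja1 starts hold none. Of the 7 called genes of the list, 6 had a promoter entry and 2 held such a pair in any entry, against 14.5% of all 27025 genes with an entry. Counted by entry, 3 of their 12 held one, against 12.8% of all 32851. The 3 include both Hsph1 entries, whose windows overlap and hold the same pair. Dnajb1, Tsc22d3, Ddit4 and Txnip had no match in this window, which says only that these letters are not there.

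Hsph1, a partner of HSP70 that exchanges its nucleotide, was at 27.6, 34.5 and 34.2 TPM in WT against 108, 70.7 and 189 TPM in the KO TN group (log2 change 1.79 ± 0.38 SE, adjusted p = 0.036). Dnaja1, an HSP40 co-chaperone, was at 76.6, 105 and 126 TPM and at 291, 272 and 442 TPM (1.70 ± 0.29, adjusted p = 0.0071). Hspa8, the constitutive HSP70, was at 734, 876 and 1189 TPM and at 2105, 1582 and 2660 TPM (1.18 ± 0.26, adjusted p = 0.045). Dnajb1, another HSP40, was at 38.8, 38.7 and 50.4 TPM and at 87.3, 68.0 and 119 TPM (1.06 ± 0.22, adjusted p = 0.032). In each of the 4 genes KO TN replicate 3 was the highest library and KO TN replicate 2 the lowest of the KO group. The KO TP and KO SP libraries had the same order by replicate number in all 4 genes, for example 1826, 1563 and 2545 TPM of Hspa8 in KO TP replicates 1 to 3 and 1996, 1586 and 2638 TPM in KO SP replicates 1 to 3. In WT cells too, replicate 3 was the highest library of Hspa8, Dnaja1 and Dnajb1 in TP, SP and TN cells. Hsph1 was highest in replicate 3 of WT TP and WT SP cells but in replicate 2 of WT TN cells. The cause of this order was not tested. The list held 9 calls with the replicate number as a block. Without KO TN replicate 3, adjusted p became 0.206 for Hsph1, 0.059 for Dnaja1, 0.228 for Hspa8 and 0.175 for Dnajb1, and the list held 3 calls in place of 7. The calls of Hsph1, Hspa8 and Dnajb1 were also lost without a filter on low values and without an intensity trend, each of which left the list with 4, and that of Hspa8 under median-of-ratios rescaling and robust variance moderation. The list also held 3 without WT TN replicate 1, 4 without WT TN replicate 2, 4 without KO TN replicate 1 and 1 with the 6 TN libraries alone.

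Hsp90ab1 and Hsp90aa1, the cytosolic HSP90 genes, were at 401 to 475 and 146 to 233 TPM in WT and at 575 to 885 and 293 to 465 TPM in KO TN cells, apart in all libraries but without a call (adjusted p = 0.087 and 0.240). The inducible HSP70 gene Hspa1a lay between 0 and 4.59 TPM and its near copy Hspa1b between 1.53 and 29.8 TPM, and reads of the 2 cannot be told apart with certainty.

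The called glucocorticoid targets followed. Tsc22d3, which encodes GILZ, a mediator of glucocorticoid action, was at 126, 78.6 and 103 TPM in WT and at 351, 303 and 348 TPM in KO TN cells (log2 change 1.72 ± 0.13 SE, adjusted p = 4.3e-07). Ddit4, an inhibitor of mTORC1, was at 50.4, 48.7 and 48.0 TPM and at 129, 162 and 114 TPM (1.43 ± 0.21, adjusted p = 0.0016). Txnip, an inhibitor of thioredoxin and of glucose uptake, was at 583, 558 and 591 TPM and at 1437, 1500 and 1181 TPM (1.24 ± 0.11, adjusted p = 5.4e-06). All 3 kept their call without each library in turn. Per1 and Fkbp5 had log2 changes of 0.58 and 0.44, without a call (adjusted p = 0.131 and 0.431).

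**Figure D2:**
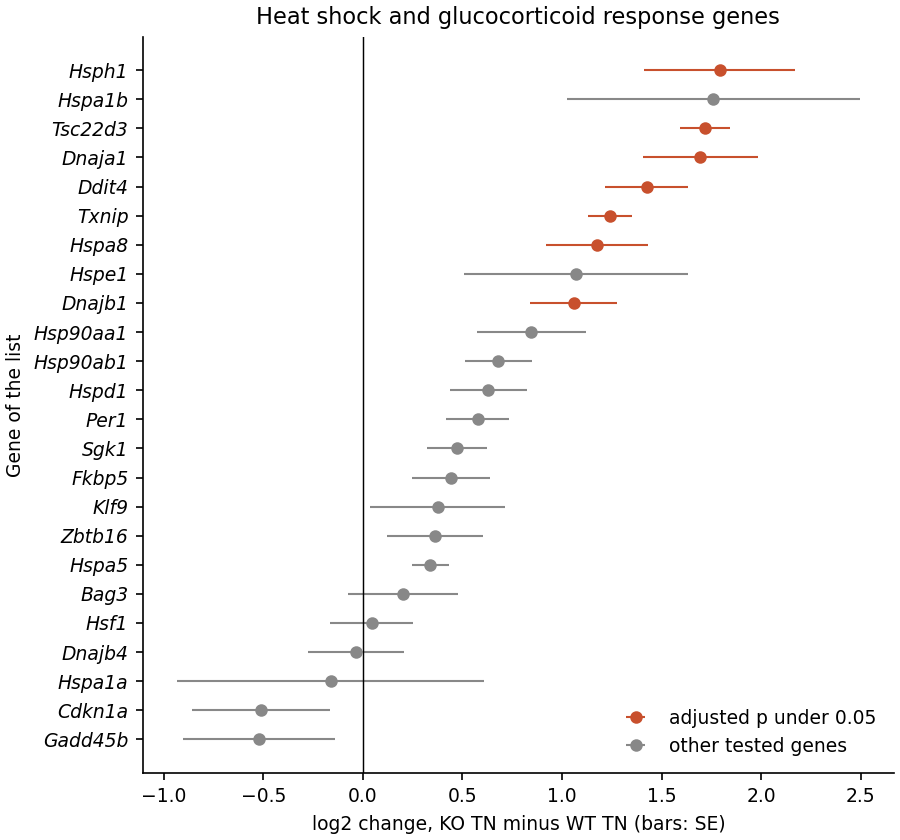
Log2 change, KO TN minus WT TN, with its standard error for the 24 tested heat shock and glucocorticoid response genes, called genes in red. The 7 called genes lie between 1.06 (Dnajb1) and 1.79 (Hsph1), and 4 genes lie below 0.

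Cytokine receptor and JAK-STAT genes changed in both directions, with 2 called higher and 2 lower of 33 tested, against 0.716% called among all genes. Kit, the receptor for stem cell factor, fell from 36.1, 26.1 and 26.1 TPM to 5.69, 10.1 and 3.93 TPM (log2 change -2.07 ± 0.36 SE, adjusted p = 0.0085), a call lost without WT TN replicate 1 (adjusted p = 0.055) or KO TN replicate 3 (0.063). Kit is also high in mast cells, whose 8 markers summed to 1.25 to 8.03 TPM in WT and 2.10 to 14.3 TPM in KO TN libraries. Pim2, a survival kinase induced by cytokines, fell from 72.7, 88.6 and 74.9 to 37.4, 44.8 and 48.8 TPM (-0.84 ± 0.15, adjusted p = 0.0090), a call lost without WT TN replicate 2 (0.055) or KO TN replicate 1 (0.056). Ifngr1, the ligand-binding chain of the interferon-gamma receptor, rose from 549, 494 and 582 to 813, 799 and 911 TPM (0.63 ± 0.08, adjusted p = 3.4e-04). Socs1, a feedback inhibitor of cytokine signalling, rose from 3.12, 6.12 and 6.34 to 14.0, 24.0 and 15.2 TPM (1.61 ± 0.32, adjusted p = 0.022), a call lost without WT TN replicate 1 (0.108), KO TN replicate 2 (0.131) or KO TN replicate 3 (0.062). None of 34 interferon-stimulated genes was called, against 0.716% of all genes. Ifi47, with the smallest p among them, was at 133 to 185 and 187 to 240 TPM, and Ddx58 at 113 to 119 and 136 to 143 TPM.

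Effector genes gave 3 calls of 21, 2 higher and 1 lower, against 0.716% of all genes. Gzmb, the granzyme that starts apoptosis in target cells, was at 739, 651 and 740 TPM in WT and at 933, 1004 and 837 TPM in KO TN cells (1.30-fold, log2 change 0.38 ± 0.08 SE, adjusted p = 0.043). Ctsc, the protease that activates granzymes, was at 141, 154 and 180 TPM and at 237, 230 and 243 TPM (0.58 ± 0.10, adjusted p = 0.0091). Ccl4, a chemokine that NK cells release on activation, fell from 147, 127 and 110 to 81.1, 58.0 and 75.1 TPM (-0.84 ± 0.16, adjusted p = 0.020). The Gzmb call was lost without any of 5 libraries, KO TN replicate 3 being the exception (adjusted p up to 0.204), and also under quantile normalization (0.118), without a filter on low values and without an intensity trend. The Ctsc call was lost without WT TN replicate 1 or KO TN replicate 3 (up to 0.054), and the Ccl4 call without any of 4 libraries, WT TN replicates 1 and 2 and KO TN replicates 2 and 3 (up to 0.117). Perforin (Prf1), Ifng and Xcl1 were not called, and Ifng stood at 52.1, 63.1 and 71.4 TPM in WT and 43.5, 45.2 and 51.6 TPM in KO cells (adjusted p = 0.403). Among 22 immediate early genes none was called, against 0.716% of all genes. Libraries did not overlap for 8 of the 22, 2 higher and 6 lower in KO, against 13.7% of all genes. Egr2, a factor induced by calcium signalling, was at 5.16, 19.0 and 7.03 TPM in WT and 2.90, 0.23 and 0.85 TPM in KO TN cells (adjusted p = 0.180).

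Maturation and early stage genes held 3 falls of 23 tested, Kit and Klrg1 above and Tnfrsf9, against 0.291% called lower among all genes. Tnfrsf9 encodes the costimulatory receptor 4-1BB and fell from 57.3, 65.3 and 66.0 to 28.0, 31.2 and 24.1 TPM (2.26-fold, log2 change -1.16 ± 0.26 SE, adjusted p = 0.047). Its groups did not overlap, yet the call was lost without any of the 6 libraries (adjusted p up to 0.207). The list held 3 falls in the full fit, none without WT TN replicate 1, 1 without each of the other 5 TN libraries, none with the 6 TN libraries alone, and 1 without a filter on low values or without an intensity trend. None of 25 NK transcription factors was called, against 0.716% of all genes. Id2, with log2 change 0.25, and Runx1, with -0.43, had the smallest p (adjusted p = 0.190 and 0.295). None of 25 cell cycle genes was called, against the same share of all genes, with Ccnd3 (0.28) and Cdkn1b (0.37) the nearest. Outside that list, Bub1b, a mitotic checkpoint kinase, fell from 7.15, 7.14 and 3.34 to 0, 0.27 and 0.76 TPM (log2 change -2.34 ± 0.41 SE, adjusted p = 0.0080).

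Of 20 survival and death genes, 1 was called, against 0.716% of all genes. Bmf, a pro-apoptotic BH3-only gene, fell from 26.6, 15.5 and 31.2 to 1.68, 0.69 and 0.84 TPM (22.8-fold, log2 change -3.59 ± 0.47 SE, adjusted p = 4.7e-04). It fell in TP cells too (log2 change -3.78), whereas in SP cells its log2 change of -1.57 was not called (adjusted p = 0.134), and the difference between TN and SP was not called (adjusted p = 0.827). Bcl2, the anti-apoptotic founder of the family, had a log2 change of 0.36 (adjusted p = 0.263). Of 25 metabolic genes, Gsta3 alone was called, against 0.716% of all genes, and is described with its neighbours.

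Other leading genes are transporters and signalling proteins. Slc15a2, a peptide transporter, rose from 91.2, 71.4 and 73.8 to 188, 208 and 204 TPM (log2 change 1.34 ± 0.22 SE, adjusted p = 0.0047). Raet1a, an NKG2D ligand, was listed at 0, 0.65 and 0 TPM in WT and at 4.00, 7.92 and 3.64 TPM in KO TN cells (log2 change 2.32 ± 0.43 SE, adjusted p = 0.015), a call lost without WT TN replicate 1 (0.051) or KO TN replicate 2 (0.086). Raet1 family members share sequence, so which member the reads came from is uncertain. Eps8l1, an actin regulator, fell from 64.6, 48.5 and 46.3 to 6.15, 0.99 and 2.08 TPM, and Arhgap31, a GTPase activator for Cdc42 and Rac1, from 11.6, 8.78 and 13.4 to 0, 0.15 and 0.04 TPM. Their log2 changes were -3.93 ± 0.42 and -3.51 ± 0.30 SE, with adjusted p of 4.8e-05 and 2.8e-06. Ifi208, an interferon-inducible gene of the PYHIN family, fell from 51.6, 48.4 and 37.8 to 1.84, 3.72 and 8.58 TPM (-3.21 ± 0.31, adjusted p = 1.5e-05).

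The remaining leading genes changed less firmly. Rab4a (log2 change 2.36), Cited4 (1.73), Cep85 (1.31), Slc35g1 (1.33) and Cdk5rap1 (1.28) rose. Of these, Cep85 kept its call without each library, and the other 4 lost it without at least 3 of the 6. Mir8097, a microRNA gene in a table made from poly(A) libraries, was at 75.9, 68.5 and 12.1 TPM in WT and listed at 0 in all 3 KO TN libraries (adjusted p = 0.045), and its call was lost without any of 5 libraries. In replicates 1 to 3 it was at 0, 0 and 11.4 TPM in WT TP cells and at 32.0, 0 and 0 TPM in WT SP cells.

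Several called genes are neighbours. Among the 11918 tested genes with a place in RefSeq gene order on GRCm38, Gsta3, Gm4956, Khdc1a, Khdc1c, Khdc1b and Kcnq5 followed each other without a gap and all 6 were lower in KO TN cells. Khdc1a, a KH-domain gene of a family described in germ cells and early embryos, fell from 76.6, 93.4 and 76.5 to 4.75, 3.90 and 5.24 TPM (log2 change -3.89 ± 0.18 SE, adjusted p = 8.1e-10). Khdc1b fell from 30.2, 15.1 and 25.7 to 1.44, 0.51 and 1.48 TPM and Khdc1c from 36.8, 12.4 and 30.1 to 2.47, 0.64 and 1.13 TPM. Gsta3, a glutathione transferase, fell from 4.69, 9.39 and 9.74 to 0.32, 0 and 0.61 TPM, and Kcnq5, a potassium channel, from 11.6, 8.60 and 15.7 to 2.08, 3.42 and 2.73 TPM. Gm4956, a predicted gene, went from 164, 134 and 120 to 1.62, 0.32 and 1.96 TPM. Ogfrl1, 2 places beyond Kcnq5, was higher (log2 change 1.84, adjusted p = 0.049, a call lost without any of the 6 libraries). The Khdc1 genes are close copies of each other, so their separate levels are uncertain, and all 6 falls were also called in TP and SP cells.

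The neighbours of B2m held 2 falls within 5 tested genes. Slc28a2, a nucleoside transporter, was the fifth tested gene on 1 side. It fell from 195, 188 and 195 to 31.6, 33.9 and 35.2 TPM (log2 change -2.49 ± 0.12 SE, adjusted p = 8.1e-10). Slc28a2b, the next tested gene beyond it, had a log2 change of 1.22, without a call. Whether reads were shared between Slc28a2 and Slc28a2b was not tested. Eif3j1, a translation initiation subunit and 2 tested genes away on the other side, fell from 27.3, 24.8 and 15.7 to 7.67, 3.05 and 4.10 TPM (-2.03 ± 0.43, adjusted p = 0.037), a call lost without WT TN replicates 1 or 2 or KO TN replicates 2 or 3 (adjusted p up to 0.185). Oip5os1, a noncoding RNA 50 tested genes away, fell from 133, 129 and 123 to 74.6, 81.8 and 82.9 TPM. It runs opposite to the gene Oip5, and whether counting used strand is not given in the sources used here. These are 3 of 100 tested genes within 50 places of B2m, 3.0% against 0.716% of all genes, and all 3 were lower. Bmf and Bub1b are adjacent to each other, 70 and 69 places from B2m. Of the 85 called genes with a place, 25 lie within 10 tested genes of another called gene, the Khdc1 and Serpinb copies among them. How many of 85 genes placed at random would lie so close was not worked out, so the count is a description. Whether sequence inherited with the B2m allele has a part in these values was not tested.

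**Figure D3:**
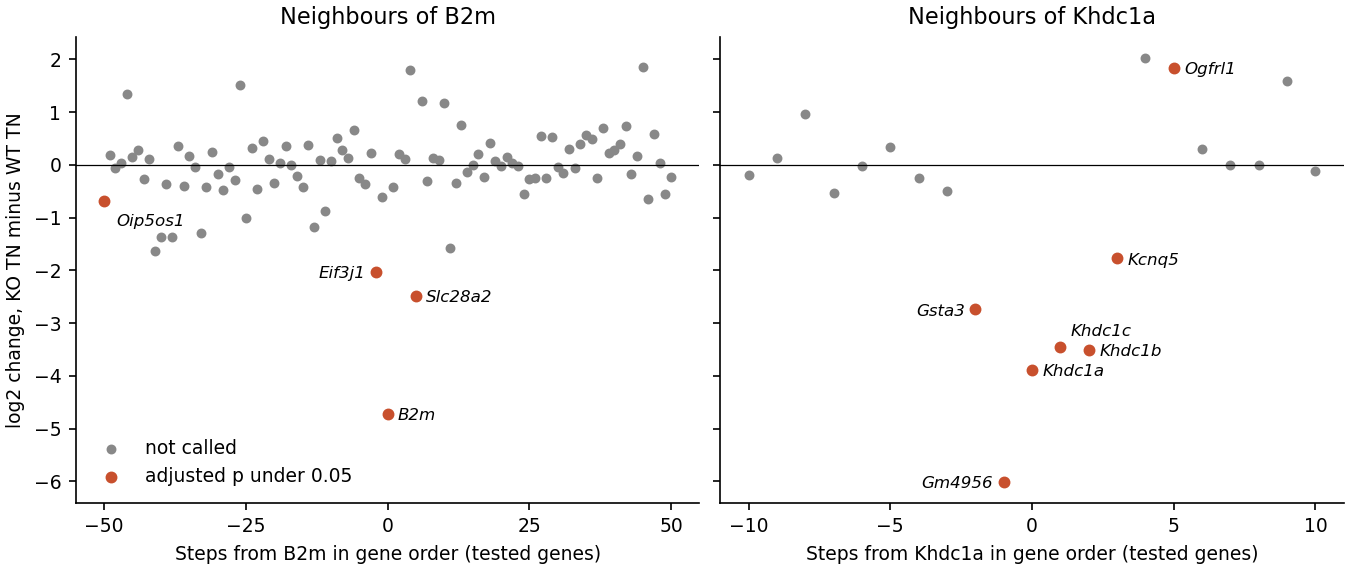
Log2 change, KO TN minus WT TN, for tested genes by place in gene order within 50 places of B2m (left) and within 10 places of Khdc1a (right), called genes in red and named. The 6 genes from Gsta3 to Kcnq5 lie at -1.77 or below.

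TP and SP cells were used to see where the TN difference stands apart. KO against WT gave 191 called genes in TP (1.59%) and 162 in SP cells (1.35%). Of the 86 genes of TN cells, 54 were called in the same direction in TP (62.8% of the TN list, 28.3% of the TP list) and 57 in SP cells (66.3% and 35.2%), and 48 in both. The 3 comparisons share no library but share the variance estimate, and the subsets may come from the same mice. The direction was the same for 84 of the 86 in TP and for 85 in SP cells. The share of all tested genes with the same direction was not worked out, so these counts are a description. The exceptions were Nrarp and Zfp113 in TP and Supv3l1 in SP cells, outside the naming rule and given here for their count. The direct test of the difference between TN and TP called 3 genes (0.025%) and that between TN and SP called 0 genes (0%) by limma, with 754 and 675 genes at an unadjusted p under 0.05. None of the 86 was among the 3, which were Igha, S100a9 and Ngp, genes of plasma cells and neutrophils with RNA in the KO TP libraries. Of 14 listed neutrophil markers, 6 were tested, all of them called in TP and none in SP or TN cells. The filter took the mean over all 18 libraries, which Igha, S100a9 and Ngp reached through their KO TP values. The count of 6 is therefore a description. The part of these markers in the comparison with TP was not tested. Another 23 genes were called in TN and in neither of the other subsets, 14 higher and 9 lower, Klra9, Cd44, Gzmb, Eif3j1 and Mir8097 among them. For none of these did the test of the difference between subsets pass the threshold.

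**Figure D4:**
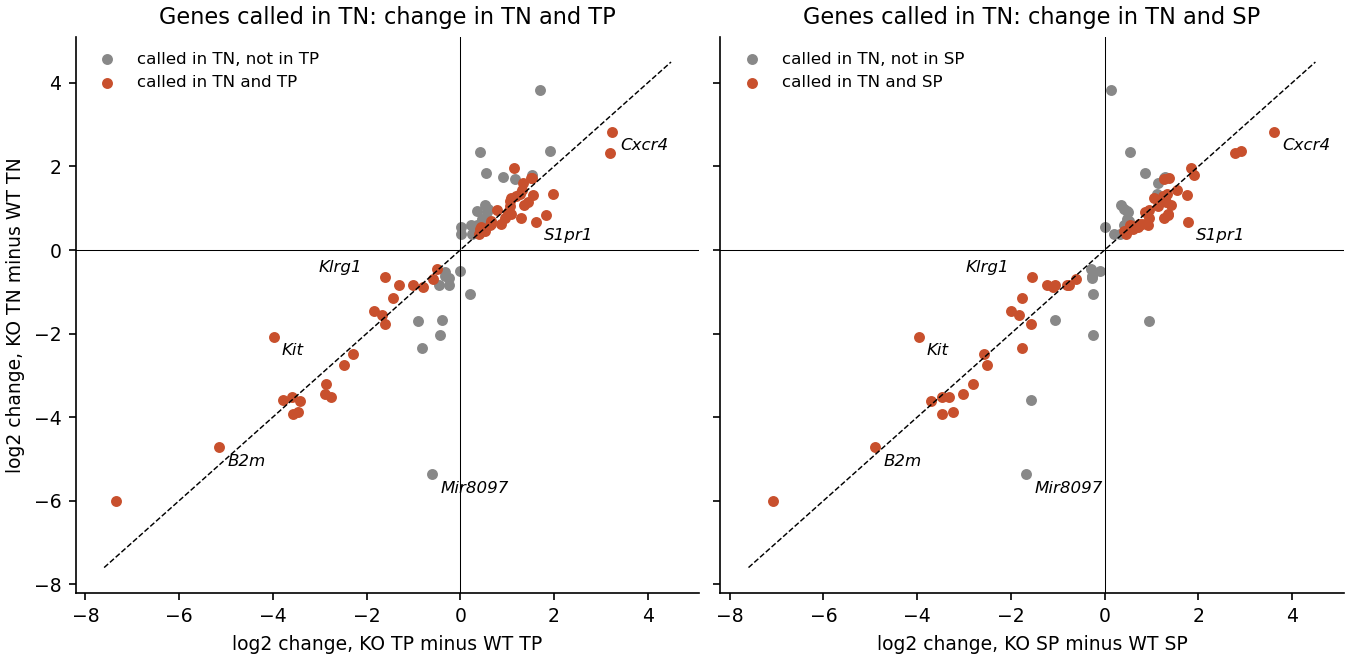
Log2 change in TN cells (vertical) against that in TP cells (left) or SP cells (right) for the 86 genes called in TN cells, red where the other subset was called too. The dashed line marks equal change. B2m and most others lie near it, while S1pr1, Klrg1 and Kit lie on the side of the smaller change in TN cells. Cxcr4 also lies on that side, at 2.84 in TN against 3.24 in TP and 3.61 in SP cells.

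S1pr1, Klrg1 and Kit changed less in TN than in TP or SP cells, by values that missed the threshold. WT TN cells held 87.9 ± 4.28 TPM of S1pr1 against 42.4 ± 7.03 in WT TP and 43.8 ± 2.47 in WT SP cells, while KO cells held 142 ± 17.1, 131 ± 13.9 and 152 ± 13.1 TPM (SD, n = 3 each). The WT levels in TN cells were thus nearer to the KO levels, and the log2 change was smaller by 0.93 than in TP and by 1.09 than in SP cells (adjusted p = 0.098 and 0.134). Klrg1 stood at 69.9 ± 8.63 TPM in WT TN against 437 ± 34.6 in WT TP and 246 ± 45.0 in WT SP cells, and at 44.9 ± 7.60, 142 ± 2.01 and 82.6 ± 6.95 TPM in KO cells. Its fall in TN cells was smaller by 0.98 and 0.92 on the log2 scale (adjusted p = 0.119 and 0.424). Kit stood at 29.5 ± 5.77, 48.1 ± 4.71 and 38.9 ± 10.6 TPM in WT TN, TP and SP cells and at 6.57 ± 3.17, 2.12 ± 0.465 and 1.77 ± 1.60 TPM in KO cells, a fall smaller by 1.91 and 1.90 (adjusted p = 0.451 and 0.827). Cd44 was the reverse, with 174 ± 12.8 TPM in WT TN against 141 ± 22.9 and 137 ± 5.14 in WT TP and SP cells, and 110 ± 8.50, 118 ± 6.41 and 113 ± 7.23 TPM in KO cells.

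**Figure D5:**
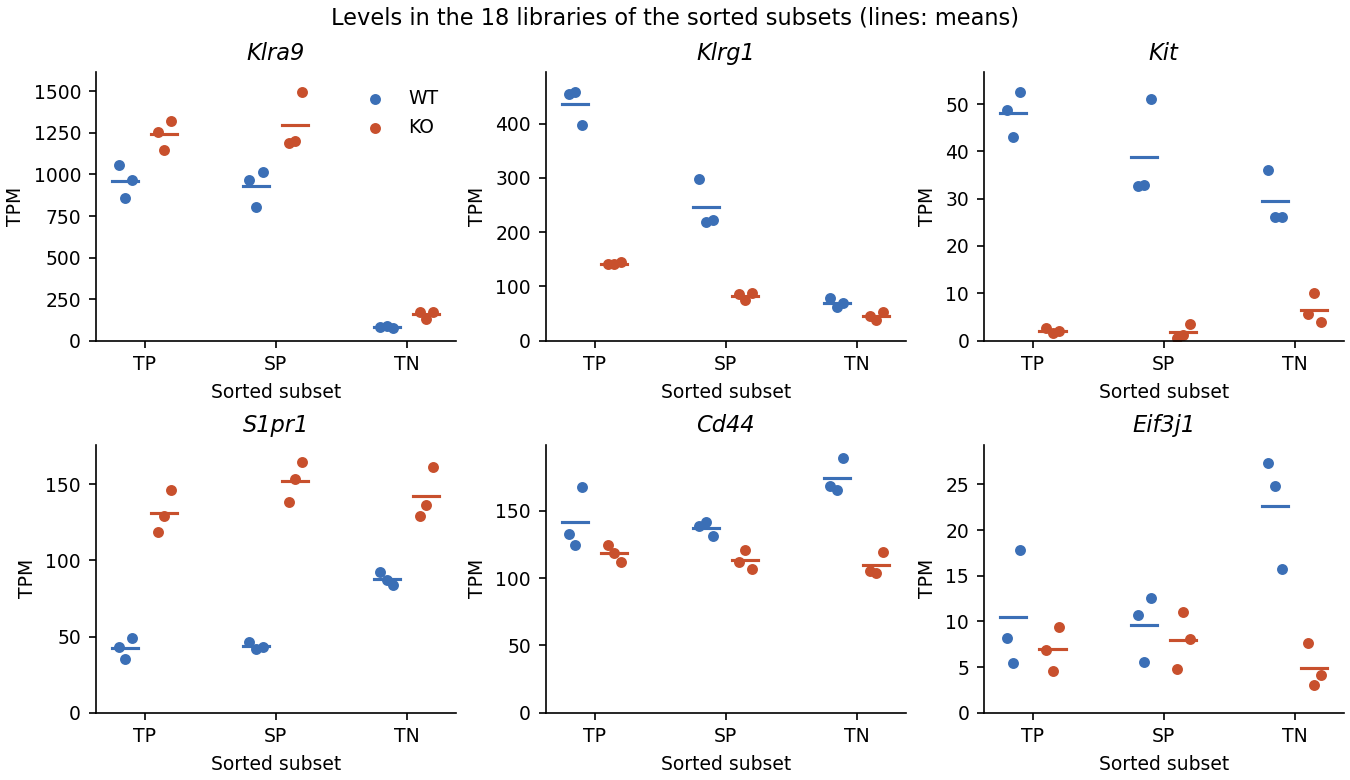
TPM of 6 genes in each of the 18 libraries of TP, SP and TN cells, WT in blue and KO in red, with lines at the group means. In TN cells Klrg1 and S1pr1 show a smaller gap between genotypes than in TP and SP cells, and Cd44 and Eif3j1 show a larger one, none past the threshold of the test of the difference.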

How the data were processed

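The authors deposited TPM per gene for 18 libraries of sorted splenic NK cells, made with STAR and RSEM on GRCm39 per the submitters' processing notes, which give no versions or annotation here. Per the labels' protocols, 50 ng of RNA with an integrity score above 7 went into each library. Other tables of the series were not used here. Values are rounded to 2 decimals and hold no depth. Groups came from the sample titles and columns from the names given in the descriptions.

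The 12018 of 32940 genes whose mean reached 1 TPM across these libraries were analysed as log2(TPM + 1), which understates changes of low genes, with limma 3.58.1 in R 4.3.3: 1 mean per group, moderated variances with an intensity trend, two-sided tests, Benjamini-Hochberg adjustment over all tested genes and a call at 0.05. Differences between subsets were tested as interaction contrasts. With 3 samples per group an exact permutation test of 1 gene cannot go below 0.1. The method was tested on simulated data.

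The comparison and the 28 gene lists (520 symbols) were chosen with earlier results of these data known. Named genes were the 15 largest rises and 15 largest falls among called genes without overlap that are not predicted genes, called list members, sort markers, genes of a called interaction, called genes within 50 tested genes of B2m, and for lists without a call up to 2 members with the smallest p. Others named in the text were chosen after their values were seen. Gene order came from RefSeq on GRCm38, used for order alone. Promoters came from RefSeq on GRCm38.p6. Alternatives were other pseudocounts, filters, normalizations and variance models, a replicate block and each TN library left out.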

Additional observations from a re-analysis of the deposited data

Results flagged for a closer look

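In 3 genes the KO minus WT difference of TN cells differed from that of TP cells by limma's interaction test: Igha by -8.05 (adjusted p = 0.0093), S100a9 by -5.38 (0.011) and Ngp by -4.49 (0.0093) on the log2 scale. Igha, an immunoglobulin heavy chain gene, was at 166, 70.5 and 169 TPM in KO TP cells, at 11.0, 0 and 0 TPM in WT TN cells and listed at 0 in KO TN cells. S100a9, a neutrophil calcium-binding protein, was at 13.2, 52.3 and 95.1 TPM in KO TP cells and listed at 0 in all 6 TN libraries. Ngp, a neutrophil granule protein, was at 17.8, 19.4 and 40.0 TPM in KO TP cells and at 0 to 0.39 TPM in the TN libraries. None of the 3 was called in TN cells. All 3 reached the filter, a mean of 1 TPM over 18 libraries, through their KO TP values. All 6 tested neutrophil markers, of 14 listed, were called in KO against WT TP cells, a count that this filter favours.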

How the results depend on the processing

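The 86 calls in TN cells became 12 with the 6 TN libraries alone in the fit, and 51 to 113 with each TN library left out in turn. They became 74 without a filter on low values, 59 of them among the 86, and 64 without an intensity trend, 55 among the 86, and Klrg1, Hsph1, Hspa8, Dnajb1, Gzmb, Eif3j1, Tnfrsf9 and Mir8097 lost their call under both. Restricting the fit to the groups compared gave 43 calls in TP and 68 in SP cells. The 3 calls of the difference between TN and TP became 0 with a pseudocount of 0.1, 10 without a filter on low values, 1 with a mean of at least 5 TPM, 1 with only the groups compared in the fit and 7 without an intensity trend, and 3 to 5 without each library. The 0 calls of the difference between TN and SP became 1 without a filter, and 0 to 2 without each library. The causes were not tested. With a replicate block the counts were 92 for TN, 75 of them among the 86, 1 for the difference from TP and 0 for that from SP. Deviations of same-numbered KO and WT TN libraries correlated at -0.036, -0.001 and -0.019 over all tested genes. A correlation over all genes cannot show a link confined to a few. Replicate 3 was the highest library of Hspa8, Dnaja1 and Dnajb1 in both KO and WT TN cells. Whether same-numbered KO and WT libraries shared a processing step was not tested. Of 45 called genes named, 38 lost their call with the 6 libraries alone. Uncalled changes reversed for Itga1 (-0.0024 without WT TN replicate 1, up to 0.57), Klrc1 (0.022 without WT TN replicate 2, down to -0.53) and Hba-a1 (0.35 without WT TN replicate 1, down to -1.49). TPM hold no depth, so counting error could not be separated from the spread between libraries.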

Other observations

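Further called genes, picked after their values were seen, include small families. Serpinb6b, Serpinb9 and Serpinb9b, neighbouring clade B serpin genes of which Serpinb9 inhibits granzyme B, were all higher in KO TN cells, with log2 changes of 0.74 ± 0.13, 0.63 ± 0.07 and 0.85 ± 0.15 SE (adjusted p = 0.011, 6.6e-05 and 0.012, limma). Serpinb9 was at 237, 249 and 258 TPM in WT and at 380, 395 and 381 TPM in KO TN cells. The Serpinb6b call was lost without WT TN replicate 2 or KO TN replicate 1 and the Serpinb9b call without KO TN replicates 1 or 2, and reads can be shared between these copies. Zfp36l2, an RNA-binding protein that shortens the life of AU-rich mRNAs, was at 432, 370 and 380 TPM in WT and at 832, 896 and 911 TPM in KO TN cells (log2 change 1.16 ± 0.09 SE, adjusted p = 4.6e-07). Fkbp4, a co-chaperone of HSP90 in steroid receptor complexes, was at 42.3, 52.1 and 59.4 TPM and at 82.1, 89.4 and 137 TPM (0.96 ± 0.19, adjusted p = 0.018), a call lost without WT TN replicates 1 or 2 or KO TN replicate 3.

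Camk2b, a calcium/calmodulin-dependent kinase chain, was at 85.3, 106 and 135 TPM in WT and at 220, 234 and 231 TPM in KO TN cells (log2 change 1.09 ± 0.17 SE, adjusted p = 0.0029). Epsti1, an interferon-responsive gene, fell from 220, 219 and 245 to 122, 120 and 137 TPM (-0.85 ± 0.09, adjusted p = 3.0e-05). Both kept their call without each TN library in turn. The splicing regulator Tra2a rose by 0.61 ± 0.10 on the log2 scale (adjusted p = 0.0062).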
